A study of Homo sapiens with 22 samples.

Results

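The chromatin around 43 genes of 8 families of developmental transcription factors was examined in myeloma cells. The families were T-box (14 genes), GATA (6), IRX (6), ZIC (4), SIX-family (5), FOXA (3), ISL (2) and MEIS (3), and the genes were taken by family membership and not by any measured value. All 43 were found among the 19974 protein-coding genes of the annotation. ATAC-seq marks open chromatin by the places where Tn5 transposase can insert adapters, and a peak is a stretch where such insertions pile up. Peak lists of 22 libraries were used, with 2 libraries in each of 11 groups, from KMS34 and KMS11, established multiple myeloma lines grown in RPMI medium. Both lines carry the label t(4;14), a translocation that places the histone methyltransferase gene NSD2 under immunoglobulin control. The KMS11 TKO libraries (day 0) do not carry that label, and TKO has a meaning not given in the sources used here. They were set against KMS11 libraries of day 0. NSD2LDD, the treatment named in the labels (concentration not given in the sources used here), was applied for 4 and 10 days in each line and set against the DMSO vehicle at the same days. KMS34 was set against KMS11 over the day 0 and DMSO libraries, 6 against 6. Each line is a single cell line, and the labels call the libraries of a group duplicates without saying that they came from separate cultures, so the p-values cover the spread between these samples, which may be technical.

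These families control which tissue a cell becomes. T-box proteins pattern mesoderm, heart and limb, and TBX21 and EOMES direct effector lymphocytes. GATA proteins divide blood (GATA1, GATA2, GATA3) from heart and endoderm (GATA4, GATA5, GATA6), FOXA proteins open chromatin in endoderm, and ZIC, IRX, ISL and SIX-family proteins act in neural tissue, limb, eye, kidney and heart. MEIS proteins bind DNA together with PBX and HOX proteins and also act in blood stem cells. Many members are kept silent by Polycomb proteins in cell types that do not use them.

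The 250 bases before the annotated start site are shown for 6 members whose start site or its surroundings separate the groups, or are open throughout. They come from RefSeq (GRCh38.p14), are written 5′ to 3′ on the strand of the gene, and have each CpG in capitals. The start-site peak of GATA6 (chr18:22169339-22169588, plus strand) and of FOXA1 (chr14:37595250-37595499, minus strand) was called in neither TKO library and in both day 0 KMS11 libraries. TBX18 (chr6:84764599-84764848, minus strand) and ZIC2 (chr13:99981534-99981783, plus strand) had peaks in KMS11 alone, and TBX21 (chr17:47732986-47733235, plus strand) in KMS34 alone. EOMES (chr3:27722324-27722573, minus strand) had its start site in a peak in all 22 libraries.
GATA6: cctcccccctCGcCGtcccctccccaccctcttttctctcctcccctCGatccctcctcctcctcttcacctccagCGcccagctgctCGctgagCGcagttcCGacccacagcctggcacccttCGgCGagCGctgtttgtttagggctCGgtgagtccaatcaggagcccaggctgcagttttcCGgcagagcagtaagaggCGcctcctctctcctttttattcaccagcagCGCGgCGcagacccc
FOXA1: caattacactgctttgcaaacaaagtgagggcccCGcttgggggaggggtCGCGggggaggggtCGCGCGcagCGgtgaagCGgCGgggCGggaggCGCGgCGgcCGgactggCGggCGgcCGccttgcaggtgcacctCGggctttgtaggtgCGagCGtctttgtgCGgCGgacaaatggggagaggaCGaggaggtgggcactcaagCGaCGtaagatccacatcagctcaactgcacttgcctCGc
TBX18: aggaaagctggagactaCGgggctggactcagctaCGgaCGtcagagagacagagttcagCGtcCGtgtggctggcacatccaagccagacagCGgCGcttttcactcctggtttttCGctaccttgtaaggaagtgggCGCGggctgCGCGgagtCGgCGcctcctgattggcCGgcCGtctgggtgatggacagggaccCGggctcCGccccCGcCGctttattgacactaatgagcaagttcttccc
ZIC2: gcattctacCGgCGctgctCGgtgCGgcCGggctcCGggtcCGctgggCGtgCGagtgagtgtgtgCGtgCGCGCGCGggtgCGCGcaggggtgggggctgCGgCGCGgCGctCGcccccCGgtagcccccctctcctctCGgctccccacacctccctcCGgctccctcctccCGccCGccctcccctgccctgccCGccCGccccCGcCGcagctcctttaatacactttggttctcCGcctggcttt
TBX21: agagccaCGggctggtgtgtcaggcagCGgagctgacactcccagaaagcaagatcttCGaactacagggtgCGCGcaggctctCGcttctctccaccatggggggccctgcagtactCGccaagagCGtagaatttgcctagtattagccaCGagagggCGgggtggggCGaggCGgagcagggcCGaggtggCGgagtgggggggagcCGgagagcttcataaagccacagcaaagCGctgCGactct
EOMES: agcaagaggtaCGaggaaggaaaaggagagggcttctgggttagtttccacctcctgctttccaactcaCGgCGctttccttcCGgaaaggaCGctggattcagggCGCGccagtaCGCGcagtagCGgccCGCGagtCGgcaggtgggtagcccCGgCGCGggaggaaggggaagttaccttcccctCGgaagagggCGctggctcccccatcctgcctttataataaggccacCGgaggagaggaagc
The motif searched was the dinucleotide CG, which reads the same on both strands. It occurred 16 times before GATA6, 26 before FOXA1, 20 before TBX18, 31 before ZIC2, 17 before TBX21 and 19 before EOMES. A promoter entry was found for 32 of the 43 members, with a median of 20 CpG and a GC content of 64.8%, against 17 CpG and 62.4% over all 15812 promoters. At least 1 CpG stood in 100% of the members' promoters and in 96.9% of all. The 5 members whose start site lay in a peak in all 22 libraries had a median of 19 CpG, and the 16 members whose start site lay in none had 21.5, a difference that was not tested. TBX2, TBX3, TBX15, GATA4, GATA5, IRX3, IRX5, IRX6, SIX3, SIX5 and FOXA2 had no promoter entry.

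The value given for a gene is the number of bases in its body and 5 kb either side that lie in peaks called in that library (the covered length, in bp). Genes differ in length, so covered lengths are compared between libraries and not between genes. The peak lists held 34165 to 52518 peaks in KMS34 and 24979 to 39002 in KMS11, with 30699 and 26887 in the TKO libraries and 36913 and 24979 in the day 0 KMS11 libraries. The files hold no read counts, so depth is unknown, and a missing peak may be closed chromatin or a library too shallow to show it. Fewer cells with an open site cannot be told apart from a weaker opening in every cell. Of 10 plasma cell markers, 8 were covered in all 22 libraries. Of the markers of other cell types, 3 of 5 B cell, 2 of 10 T and NK, 4 of 8 erythroid and megakaryocyte, 3 of 8 stromal and endothelial and 0 of 8 myeloid genes were covered in all 22 libraries. MS4A1 of B cells, CD3D of T cells and MPO and CD33 of myeloid cells were covered in none.

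Open chromatin was less common at the members than at genes as a whole. Of the 43 members, 15 (34.9%) were covered in all 22 libraries, against 60.2% of all protein-coding genes. These were TBX3, TBX6, TBX10, TBX20, EOMES, GATA4, IRX5, ZIC5, SIX2, SIX4, SIX5, FOXA3, ISL2, MEIS1 and MEIS2. Another 8 members (18.6%, against 13.7% of all genes) had no called peak in any library: TBX4 and TBX5, which pattern hindlimb and forelimb, TBXT, the mesoderm factor brachyury, the erythroid factor GATA1, IRX4, IRX6, SIX6 of the eye and FOXA2 of endoderm. The remaining 20 members were covered in some libraries and not in others. For 4 of them, TBX18, IRX3, ZIC2 and ISL1, coverage was found in no KMS34 library and in every KMS11 library, which is 9.3% of the members and 0.37% of all genes. TBX21 was the 1 member with the opposite pattern (2.33%, against 1.2% of all genes). These shares describe the lists, and no test was run on them.

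**Figure D1:**
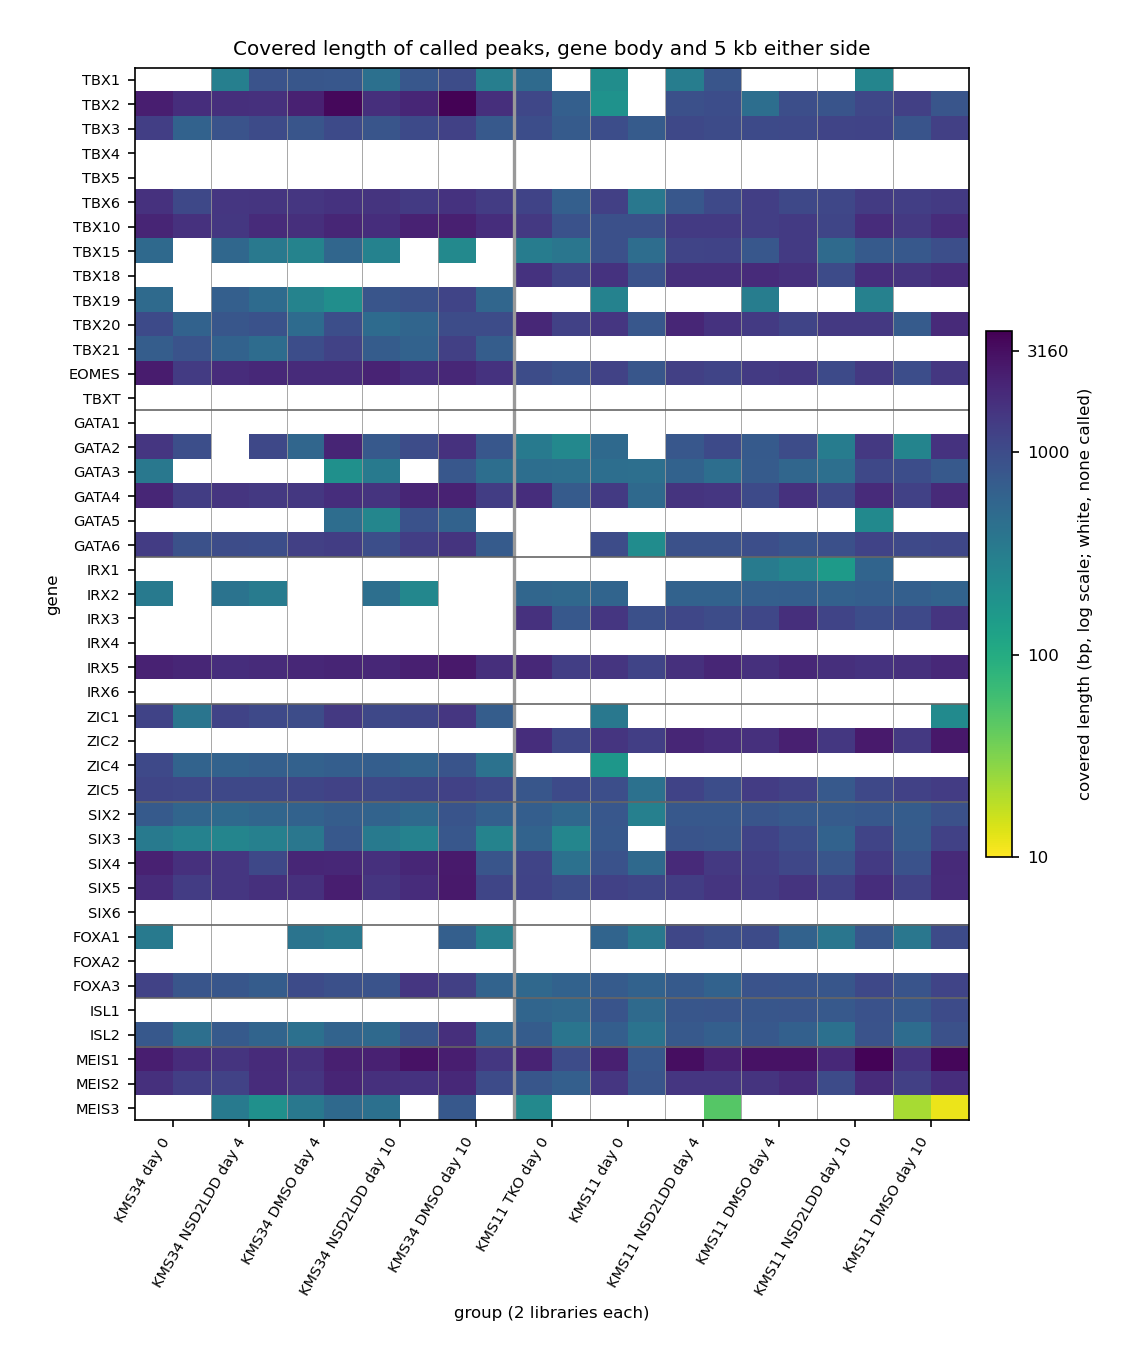
Each cell of the heat map is the covered length of one member (vertical axis, ordered by family) in one library (horizontal axis, 2 libraries per group), on a log colour scale in bp, with white where no peak was called. TBX18, IRX3, ZIC2 and ISL1 are white in all 10 KMS34 libraries, TBX21 is white in all 12 KMS11 libraries, and GATA6 and FOXA1 are white in both TKO libraries.

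At the start sites the pattern was similar. Of the 32 members with an annotated start site, 5 (15.6%, against 42.2% of all genes) had it inside a peak in all 22 libraries, namely TBX6, EOMES, SIX2, ISL2 and MEIS1. In 16 (50.0%, against 37.7%) it lay in a peak in no library. Several of these 16 were nevertheless covered elsewhere in the window in all 22 libraries, as TBX10, ZIC5 and FOXA3 were. After merging peaks across libraries, 80 regions lay in the windows of 35 members. Of these, 16 lay over an annotated start site, 43 were placed in gene bodies and 21 in flanks. Regions of the 11 members without a promoter entry could be placed only in the body or a flank. Some of them span an end of the gene, as at IRX3, TBX3 and SIX3. The 80 regions had a median width of 718 bp, and 18 (22.5%, against 14.4% of all 96166 regions) were called in all 22 libraries. No KMS34 library and every KMS11 library called 7 of the 80 regions (8.75%, against 1.76% of all regions), and the reverse held for 4 (5.0%, against 2.52%).

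For some members the covered bases lay at a neighbouring gene. The coverage of TBX6 and FOXA3 lay wholly within other protein-coding genes or 1 kb of them (PPP4C and YPEL3 for TBX6, SYMPK for FOXA3). The share outside other genes was 3.61% for SIX5 (near DMPK and MEIOSIN), 11.3% for TBX10 (near NUDT8 and ACY3) and 14.7% for FOXA1 (near TTC6). Values of these 5 members therefore describe the neighbourhood as much as the gene.

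The lines differed at 21 of the 35 members that could be tested, that is, those covered in at least 2 libraries. With limma and Benjamini-Hochberg adjustment over 16738 genes, 12 members (34.3%) were lower in KMS34 than in KMS11, against 14.7% of all genes tested, and 9 (25.7%) were higher, against 20.9%. Without scaling of the libraries the split was 7 lower and 8 higher among members, and 944 lower and 4265 higher among all genes, with the median difference of all genes at 0.25 in place of 0.03 on the log2 scale. With scaling the median difference of the members was -0.05, and without it 0.17. In 8 of the 35 the covered lengths of the lines did not overlap, against 12.6% of all genes. Among 11 T-box genes tested 4 were lower and 6 higher, among 4 IRX genes 3 were lower, and among 4 ZIC genes 1 was lower and 2 were higher. Of 5 GATA genes 1 was lower, of 4 SIX-family genes 1 was lower and 1 higher, of 2 FOXA and 2 ISL genes 1 each was lower, and none of the 3 MEIS genes passed. The calls nearest the threshold depended on single libraries. TBX3, TBX19, SIX4 and SIX3 kept call and direction in only 10 of 37, 13 of 36, 17 of 37 and 22 of 37 other settings. With 1 library left out their log2 differences ran over -0.36 to -0.17, 0.56 to 1.06, 0.33 to 0.66 and -0.97 to -0.37.

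**Figure D2:**
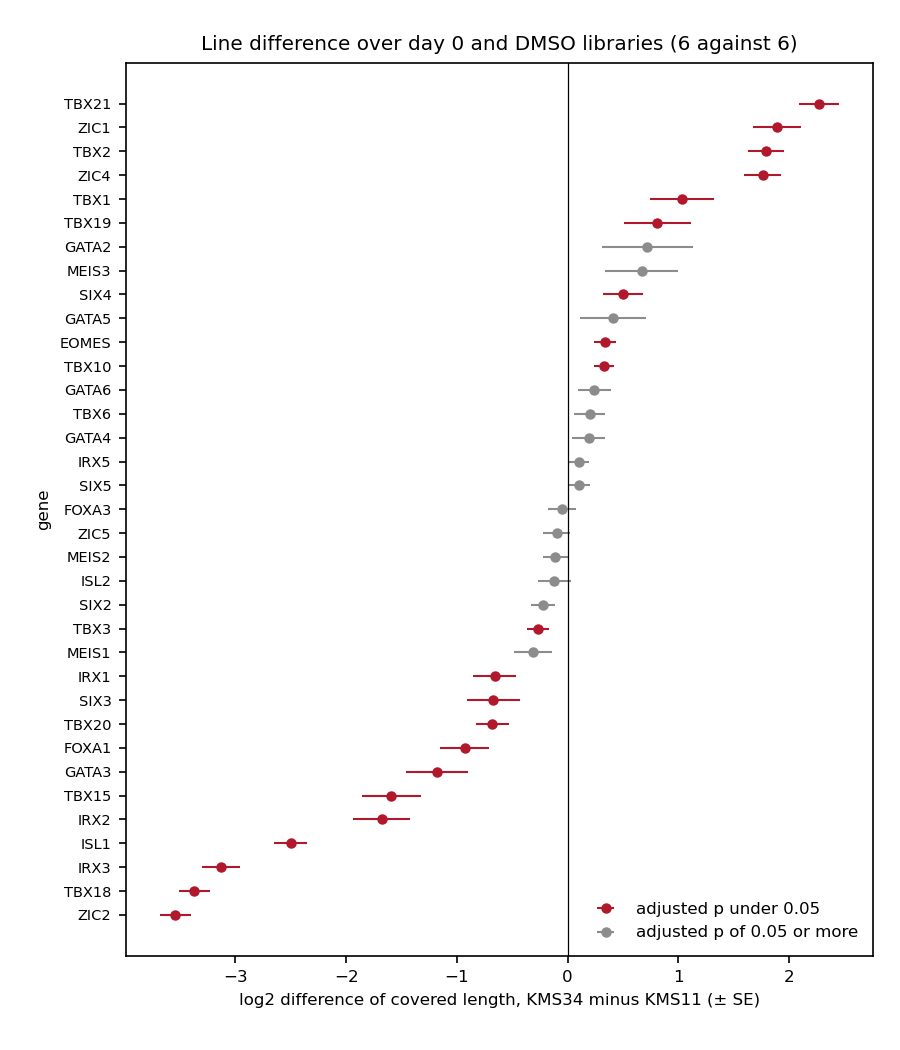
Points give the log2 difference of covered length, KMS34 minus KMS11 across the libraries of day 0 and DMSO (6 against 6), for the 35 members tested, with bars of 1 SE. Red points passed an adjusted p of 0.05, and they run between -3.54 at ZIC2 and 2.27 at TBX21.

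T-box genes differed in both directions. TBX18, which acts in the sinoatrial node and in the ureter, had no called peak in any of the 6 KMS34 libraries, against a lowest, median and highest covered length of 887, 1699 and 1905 bp in KMS11. The lines did not overlap, and the log2 difference was -3.37 ± 0.14 (SE; limma adjusted p = 7.22e-11). No fold is given against a group with no called peak, since the log2 difference then depends on the 200 bp added to each value. TBX15, a factor of skeletal muscle and limb, covered 0, 255.5 and 554 bp (lowest, median, highest) in KMS34 and 465, 858 and 1430 bp in KMS11. Its lines overlapped, with KMS34 lower by -1.59 ± 0.27 on the log2 scale (limma adjusted p = 0.000244). TBX20, a cardiac factor, covered 492, 964 and 1030 bp in KMS34 and 708, 1306.5 and 1938 bp in KMS11, a difference of -0.68 (limma adjusted p = 0.00262) with overlap between lines. TBX3, a limb and mammary repressor, covered 612, 932 and 1298 bp in KMS34 and 720, 1009.5 and 1295 bp in KMS11, nearly the same range (-0.27, limma adjusted p = 0.0486).

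TBX21, the T-bet gene of effector T and NK cells, showed the opposite of TBX18. Its window covered 674, 921.5 and 1280 bp in KMS34, and no peak was called there in KMS11. The log2 difference was 2.27 ± 0.18 (limma adjusted p = 8.28e-08). TBX2, a repressor related to TBX3, covered 1766, 2348.5 and 3810 bp in KMS34 and 0, 641 and 1266 bp in KMS11, again without overlap, at 1.79 ± 0.16 (limma adjusted p = 2.74e-07). Much of the KMS34 coverage lay in a flank region over the start of LINC02875 (chr17:61410827-61412768), with 1772 and 1357 bp at day 0. That region and one in the TBX2 body (chr17:61400283-61401270) were both called higher in KMS34, at log2 differences of 2.19 and 2.51. EOMES was open in both lines, with 1415, 1910 and 2505 bp in KMS34 and 807, 1320 and 1509 bp in KMS11 (0.34 ± 0.10, limma adjusted p = 0.0142). The lines overlapped narrowly at EOMES. With the gene body alone the EOMES difference was 0.05 (limma adjusted p = 0.77), and with the gene ends alone -0.02 (limma adjusted p = 0.926). TBX1, a pharyngeal factor, covered 0, 551.5 and 991 bp in KMS34 and 0, 0 and 212 bp in KMS11 (1.03, limma adjusted p = 0.0101). With 50 kb either side the TBX1 difference was called in the opposite direction (-0.53, limma adjusted p = 0.0359). TBX19, a pituitary factor, covered 0, 390 and 1175 bp in KMS34 and 0, 0 and 312 bp in KMS11 (0.81, limma adjusted p = 0.0459). TBX10 covered 1715, 1949.5 and 2333 bp in KMS34 and 914, 1381 and 1867 bp in KMS11 (0.33, limma adjusted p = 0.0111), and most of that lay at its neighbours. Overlap between lines was found at TBX1, TBX19 and TBX10 alike.

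TBX21, EOMES and GATA3 are lymphocyte factors, and the T and NK marker list was measured beside them. Its 10 genes covered 3404 to 8565 bp in sum in KMS34 libraries and 701 to 5670 bp in KMS11 libraries, and 8 of the 10 could be tested. CD3D was covered in no library. NKG7, a cytotoxic granule gene, averaged 1242 ± 462 bp in KMS34 and 0 bp in KMS11 (SD, n = 6 each), and was called higher (limma adjusted p = 6.51e-08). It was the only 1 of the 8 called between lines, against 20.9% of all genes higher in KMS34 and 14.7% lower. The KMS34 peak lists were also mostly longer, which raises such sums. The summed plasma cell markers covered 15682 to 28676 bp in KMS34 and 6924 to 18805 bp in KMS11. Of these 10 markers, 5 were called higher in KMS34 (PRDM1, SDC1, CD38, SLAMF7 and POU2AF1), against 20.9% of all genes. Another 3 were called lower (XBP1, TNFRSF17 and JCHAIN), against 14.7%. The part of either list in the differences at the members was not tested.

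Among GATA genes only GATA3, which directs T helper cells and also breast epithelium, passed the test between lines. GATA3 covered 0, 280 and 785 bp in KMS34 and 448, 628 and 964 bp in KMS11, with overlap (-1.18 ± 0.28, limma adjusted p = 0.0031). The called peaks lay in more than 1 stretch of the gene. A region in its body that spans the start of GATA3-AS1 (chr10:8053297-8054376) was called in no KMS34 library and in 12 of 12 KMS11 libraries. The region over the start site was called in 4 of the 6 KMS34 libraries and in 1 of the 6 KMS11 libraries and did not pass (limma adjusted p = 0.132). GATA2, a factor of blood stem and progenitor cells, did not pass as a whole (0.72, limma adjusted p = 0.191), with 554, 1249 and 2167 bp in KMS34 and 0, 617.5 and 1650 bp in KMS11. Of its regions 2 did, in opposite directions, at 1.65 for a region in the gene body and at -1.63 for a region 4750 bp upstream (limma adjusted p = 0.0356 and 0.00185). The call in the gene body was lost in 9 of 31 other settings, and its difference ran over 1.07 to 2.24 with 1 library left out. GATA4, GATA5 and GATA6 did not differ beyond the test, with log2 differences of 0.19, 0.41 and 0.24.

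The IRX genes that differed were all lower in KMS34. IRX3, a patterning factor of neural tube and limb, had no called peak in KMS34 and 928, 1330.5 and 1765 bp in KMS11 (-3.13 ± 0.17, limma adjusted p = 1.65e-09). IRX2, its relative in the same kind of gene cluster, covered 0, 0 and 348 bp in KMS34 and 0, 619.5 and 658 bp in KMS11 (-1.68 ± 0.26, limma adjusted p = 8.5e-05). IRX1 was covered in 0 of 6 KMS34 libraries and in 2 of 6 KMS11 libraries, both of DMSO at day 4, with 331 and 270 bp (-0.66, limma adjusted p = 0.0142). IRX3 was separated fully between lines, while IRX2 and IRX1 overlapped through KMS11 libraries without a peak. IRX5 was open in both lines, with 1768, 2121 and 2622 bp in KMS34 and 1165, 1732 and 2023 bp in KMS11 (0.10, limma adjusted p = 0.426).

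The ZIC genes, zinc-finger factors of the neural tube and of left-right patterning that lie in head-to-head pairs (ZIC1 with ZIC4, ZIC2 with ZIC5), differed in both directions, with ZIC2 lower in KMS34, ZIC1 and ZIC4 higher and ZIC5 not passing the test. ZIC2 had no called peak in KMS34 and covered 1314, 1648 and 2680 bp in KMS11 (-3.54 ± 0.14, limma adjusted p = 5.76e-11). ZIC5, its partner, was covered in every library, with 1099, 1137 and 1252 bp in KMS34 and 424, 1244 and 1388 bp in KMS11 (-0.10, limma adjusted p = 0.58). ZIC2 was thus separated fully between the lines and ZIC5 overlapped. ZIC1 covered 389, 1087 and 1528 bp in KMS34 and 0, 0 and 359 bp in KMS11 (1.89 ± 0.22, limma adjusted p = 5.36e-06). ZIC4 covered 412, 643.5 and 1056 bp in KMS34 and 0, 0 and 167 bp in KMS11 (1.76 ± 0.17, limma adjusted p = 6.13e-07). Neither ZIC1 nor ZIC4 overlapped between lines, and 1 small region between them is shared by both windows.

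ISL1, a LIM-homeodomain factor of motor neurons and heart progenitors, had no called peak in KMS34 and 498, 811.5 and 1007 bp in KMS11 (-2.50 ± 0.15, limma adjusted p = 5.02e-09). All of that lay in 1 region centred 4376 bp upstream of its start site, within the divergent transcript ISL1-DT (chr5:51378569-51379575). ISL2, the related gene, covered 437, 586.5 and 1782 bp in KMS34 and 408, 645 and 907 bp in KMS11 (-0.12, limma adjusted p = 0.585). SIX4, a factor of muscle precursors, covered 826, 2050 and 2593 bp in KMS34 and 520, 1004 and 1930 bp in KMS11 (0.50 ± 0.18, limma adjusted p = 0.045). SIX3, a forebrain and eye factor, covered 273, 353 and 783 bp in KMS34 and 0, 872.5 and 1242 bp in KMS11 (-0.67 ± 0.24, limma adjusted p = 0.0401). Both SIX-family genes overlapped between lines. The SIX3 difference was called in the opposite direction with the gene body alone (0.88, limma adjusted p = 0.000393) and with the gene ends alone (1.17, limma adjusted p = 7.87e-06). With 50 kb either side it was 0.53 (limma adjusted p = 0.161). FOXA1, a pioneer factor of breast, prostate and endoderm, covered 0, 349 and 643 bp in KMS34 and 362, 597 and 1005 bp in KMS11 (-0.93 ± 0.22, limma adjusted p = 0.00303), with overlap. MEIS1 and MEIS2 were covered throughout, at log2 differences of -0.31 and -0.11, and MEIS3 was covered in 3 of 6 KMS34 libraries (0.67, limma adjusted p = 0.127).

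At the level of regions, 15 of the 68 regions tested in the members' windows were lower in KMS34 (against 14.2% of all 69187 regions tested) and 16 were higher (against 20.0%). The 5 with the smallest p were each called in all 6 libraries of one line and in none of the other. They lay over the start sites of ZIC2 (chr13:99980058-99982912; -4.42, limma adjusted p = 1.53e-10), TBX18 (chr6:84762950-84764854; -4.24, limma adjusted p = 1.84e-10) and TBX21 (chr17:47732850-47734185; 3.18, limma adjusted p = 1.24e-08). The others spanned an end of the IRX3 body (chr16:54285482-54287263; -3.98, limma adjusted p = 1.38e-09) and lay upstream of ISL1 (-3.30, limma adjusted p = 2.59e-09). The ZIC2 start site itself lay in a peak in 0 of the 2 day 0 and 3 of the 4 DMSO libraries of KMS11. MEIS1 did not differ as a gene, yet a region inside it (chr2:66561710-66562327), 126894 bp from its start site, was not called in KMS34 and covered 357, 466 and 516 bp in KMS11 (-2.64, limma adjusted p = 2.29e-08).

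At several members the lines used different stretches of the same window. FOXA1 had its start-site region (chr14:37594314-37595464) in 0 of 6 KMS34 libraries and in 6 of 6 KMS11 libraries (-2.95, limma adjusted p = 3.18e-08). A region centred 4611 bp upstream, inside TTC6, was called in 5 of 6 KMS34 libraries and in 0 of 6 KMS11 libraries (1.74, limma adjusted p = 0.000193). SIX3 had a region over the start of LINC01833 in 2 of 6 KMS34 and 5 of 6 KMS11 libraries (-2.19, limma adjusted p = 0.00233). Another SIX3 region spanned the start of SIX3-AS1 and an end of the SIX3 body. It was called in 6 of 6 KMS34 and 0 of 6 KMS11 libraries (1.87, limma adjusted p = 1.98e-06). TBX3 had a region spanning an end of its body that was lower in KMS34 (-0.79, limma adjusted p = 1.02e-05). A region in the TBX3 flank was called in 6 of 6 KMS34 and 0 of 6 KMS11 libraries (1.91, limma adjusted p = 0.000302). Together with GATA2, within the limit given for it, these were 4 members holding regions called in opposite directions, and a sum over the window mixes them.

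**Figure D3:**
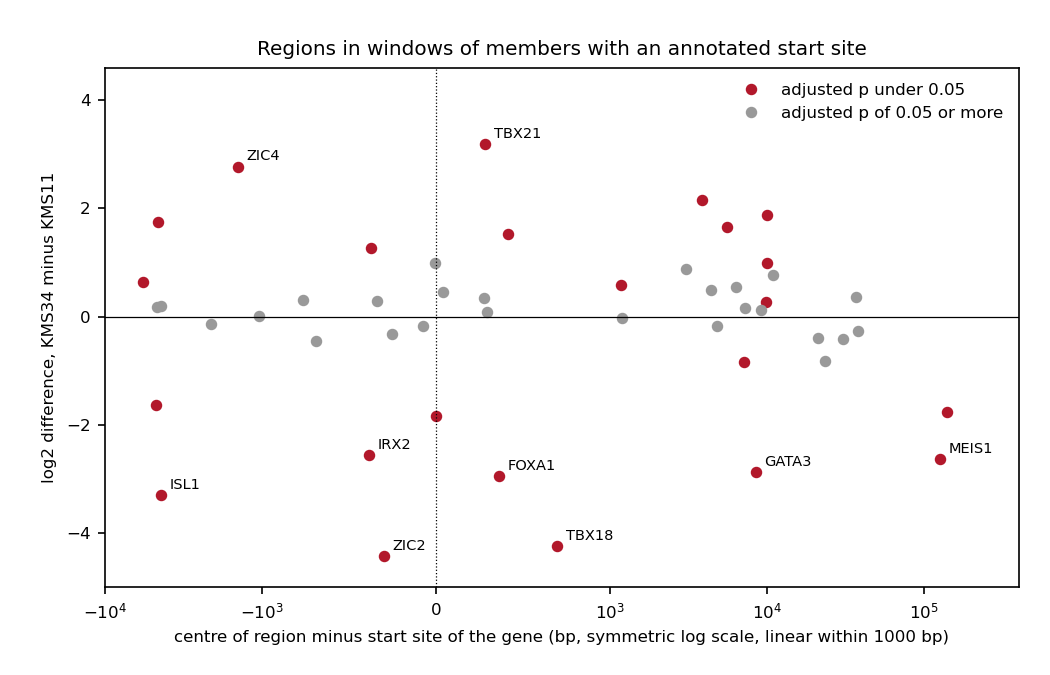
Each point is a region in the window of a member with an annotated start site, placed by the distance of its centre from that start site (bp, symmetric log scale) and by its log2 difference, KMS34 minus KMS11 across the libraries of day 0 and DMSO. Red points passed an adjusted p of 0.05 and are labelled where the difference is beyond 2.5 either way, with ZIC2 at -4.42 and TBX21 at 3.18 as the ends of the range.

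Between TKO and day 0 KMS11, 3 of the 35 members tested (8.57%) were lower in TKO, against 3.34% of all genes tested, and 1 (2.86%) was higher, against 1.35%. GATA6, FOXA1 and MEIS2 were lower and TBX2 was higher. In 5 of the 35 members the groups did not overlap, against 22.5% of all genes, and the members' median log2 difference was -0.14, against -0.03 for all genes. The groups have 2 libraries each, and the second day 0 KMS11 list is the shortest of all 22. The balance of directions rests on the day 0 libraries. Without the first, 473 genes were lower and 794 higher in TKO (members 2 and 2), and without the second 491 and 119 (members 3 and 1), in place of 559 and 226. Without scaling the counts were 164 and 45 (members 1 and 1).

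GATA6, a regulator of heart and gut endoderm, had no called peak in either TKO library, against 1001 and 216 bp in the day 0 KMS11 libraries. The other 8 KMS11 libraries covered 841 to 1191 bp and all 10 KMS34 libraries 717 to 1629 bp, so no library outside TKO lacked a peak there. The log2 difference was -1.97 ± 0.27 (limma adjusted p = 0.000313). The call was lost with peaks of -log10 q 5 or more (-1.44, limma adjusted p = 0.0754), with lists of equal length (-1.98, limma adjusted p = 0.0896) and with no flank (-1.19, limma adjusted p = 0.101). The coverage lay in 1 region over the start site (chr18:22169028-22170696), which was lower in TKO by -2.70 ± 0.33 (limma adjusted p = 0.000125). The call of that region was lost with peaks of -log10 q 5 or more (-1.87, limma adjusted p = 0.146) and with lists of equal length (limma adjusted p = 0.0575). FOXA1 likewise had no called peak in TKO, against 581 and 362 bp in the day 0 KMS11 libraries and 370 to 1107 bp in the other 8 KMS11 libraries (-1.87 ± 0.38, limma adjusted p = 0.00713). Its start-site region was lower in TKO by -2.63 ± 0.37 (limma adjusted p = 0.000414). The call for the FOXA1 window was lost with peaks of -log10 q 5 or more (limma adjusted p = 0.0931). It was also lost with lists of equal length and without scaling (limma adjusted p = 0.133 and 0.115). With bases outside other genes the FOXA1 difference was -0.12 (limma adjusted p = 0.952). Without the first TKO library the window had no call, at -1.70. The call of the FOXA1 start-site region was lost with lists of equal length (limma adjusted p = 0.0993). The nearest regions called in TKO lay 427 kb below and 192 kb above GATA6, and 927 kb below and 279 kb above FOXA1.

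MEIS2, a homeodomain partner of PBX proteins, was covered in both groups but was lower in TKO, with 807 and 655 bp in TKO libraries against 1556 and 821 bp in day 0 KMS11 libraries. The groups did not overlap, although 655 to 807 bp stood close to the 821 bp of the second day 0 library (-0.67 ± 0.18, limma adjusted p = 0.0456). That call was lost in 23 of 39 other settings, among them without either TKO library (limma adjusted p = 0.206 without the first and 0.108 without the second). One MEIS2 region (chr15:37100249-37102159), centred 2098 bp upstream of the annotated start site, was lower by -0.72 ± 0.16 (limma adjusted p = 0.0182). That region spans an end of the annotated gene body. Its call was lost in 6 of 32 other settings, some with 1 library left out. Among them were no scaling (-0.58, limma adjusted p = 0.681) and lists of equal length (-0.72, limma adjusted p = 0.961). With those of GATA6 and FOXA1, 3 of the 68 regions were lower in TKO, against 3.10% of all regions. No member region was called higher, against 0.967%. Without the first day 0 KMS11 library 1840 regions were lower and 2149 higher in place of 2146 and 669, and 2 member regions were called lower and 2 higher.

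TBX2 was the member called higher, with 1105 and 652 bp in TKO libraries against 189 and 0 bp in day 0 KMS11 libraries (1.77 ± 0.27, limma adjusted p = 0.000882). The groups did not overlap. In the DMSO libraries of KMS11 TBX2 covered 463 to 1266 bp, a range that includes both TKO values, and with the DMSO libraries added to day 0 the difference was 0.78 (limma adjusted p = 0.0503). With the gene body alone it was 0.32 (limma adjusted p = 0.901), and with the gene ends alone 1.51 (limma adjusted p = 0.186). With that larger control the other 3 kept their direction and call, at -2.19 for GATA6, -1.90 for FOXA1 and -0.71 for MEIS2 (limma adjusted p = 7.97e-06, 0.000812 and 0.00747). ZIC1 (-0.89, limma adjusted p = 0.251) and TBX15 (-0.79, limma adjusted p = 0.466; 325 and 384 bp in TKO against 925 and 465 bp at day 0) did not pass. COL1A1 was higher in TKO among 8 stromal and endothelial markers, at 738 ± 148 bp against 336 ± 151 bp in day 0 KMS11 (SD, n = 2 each; limma adjusted p = 0.0343). It was the only 1 of the 8 called, against 1.35% of all genes higher. The median log2 difference of that list was -0.13, against -0.03 for all genes. The part of COL1A1 in the result was not tested.

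**Figure D4:**
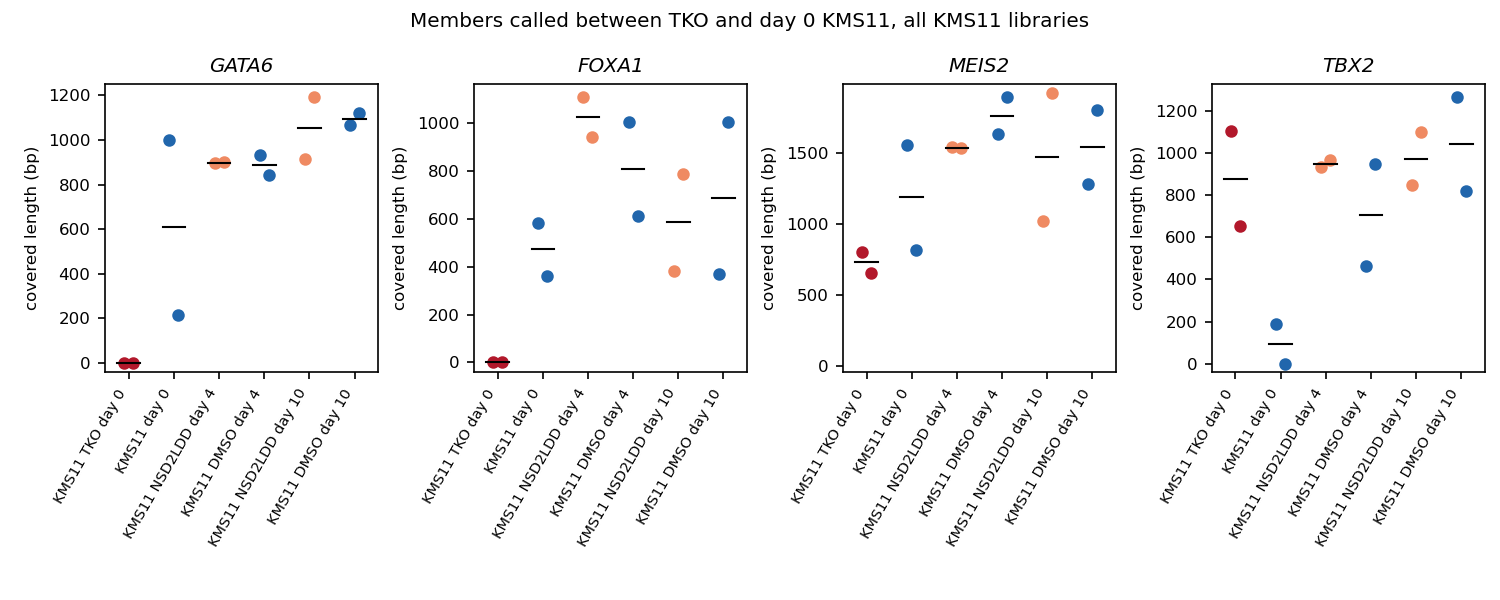
Points give the covered length (bp) of GATA6, FOXA1, MEIS2 and TBX2 in each KMS11 library, by group along the horizontal axis, and black lines give the mean of the 2 libraries. GATA6 and FOXA1 sit at 0 in both TKO libraries, and TBX2 in day 0 KMS11 (189 and 0 bp) lies below the other groups.

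Under NSD2LDD no member passed the test as a gene. Among all 16738 genes tested, limma called 0% in KMS11, 0% in KMS34 and 0% for the difference of the effects between lines, with 586, 1044 and 556 genes at an unadjusted p under 0.05. Of the 35 members, 2, 5 and 5 had an unadjusted p under 0.05. The median log2 difference of the members was -0.04 in KMS11 (all genes -0.01) and -0.02 in KMS34.

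The 3 members with the smallest p in KMS11 were TBX1, ZIC5 and TBX20. TBX1 covered 316 and 817 bp at day 4 and 0 and 261 bp at day 10 under NSD2LDD, and no peak was called in the 4 DMSO libraries (1.21 ± 0.35, limma adjusted p = 0.709). ZIC5 covered 1204 and 962 bp at day 4 and 750 and 1082 bp at day 10 under NSD2LDD, against 1388 and 1238 bp at day 4 and 1250 and 1368 bp at day 10 in DMSO (-0.37 ± 0.15, limma adjusted p = 1.0). TBX20 averaged 1675 ± 291 bp under NSD2LDD and 1315 ± 514 bp in DMSO (SD, n = 4 each; 0.34 ± 0.19, limma adjusted p = 1.0). TBX1 overlapped its controls at 0 bp and TBX20 overlapped widely, while all 4 ZIC5 values under NSD2LDD were below those in DMSO. Of the 68 regions none passed, against 0.0694% of all regions called, and 4 had an unadjusted p under 0.05, against 3321 of all 69187 regions. The TBX1 start-site region was present in 3 of 4 libraries with NSD2LDD and 0 of 4 with DMSO (1.77, limma adjusted p = 0.218).

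In KMS34 the smallest p belonged to FOXA1. Its window had no called peak in the 4 NSD2LDD libraries, against 398 and 351 bp at day 4 and 643 and 295 bp at day 10 in DMSO (-1.59 ± 0.27, limma adjusted p = 0.0693). IRX2 showed the reverse, with 404 and 329 bp at day 4 and 451 and 247 bp at day 10 under NSD2LDD and no called peak in DMSO (1.48 ± 0.32, limma adjusted p = 0.309). TBX21 covered 607 and 480 bp at day 4 and 703 and 606 bp at day 10 under NSD2LDD, against 977 and 1216 bp at day 4 and 1280 and 674 bp at day 10 in DMSO (-0.59 ± 0.22, limma adjusted p = 0.667). FOXA1 and IRX2 did not overlap between NSD2LDD and DMSO, and TBX21 overlapped through 1 DMSO library. SIX2 did not overlap either, with 515 to 590 bp under NSD2LDD and 611 to 841 bp in DMSO. The share of all genes without overlap was not counted for NSD2LDD in either line.

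In KMS34 2 regions in the members' windows passed, 1 lower (against 0.344% of all regions tested) and 1 higher (against 0.642%), and 7 of the 68 had an unadjusted p under 0.05, against 6833 of all 69187 regions. These shares of all regions move with the libraries used. With 1 library left out, 44 to 357 regions were lower and 70 to 622 higher in place of 238 and 444, and with KMS34 alone 5 were lower and 1 was higher. The lower one was the region 4611 bp upstream of FOXA1 (chr14:37599539-37600181), at -2.32 ± 0.35 (limma adjusted p = 0.0088). It was present in 0 of 4 libraries with NSD2LDD and 4 of 4 with DMSO, and day 0 KMS34 libraries had 347 and 0 bp. The higher one lay 4674 bp upstream of IRX2 (chr5:2756154-2756549), within the divergent transcript IRX2-DT, at 1.73 ± 0.35 (limma adjusted p = 0.0395). It covered 178 and 329 bp at day 4 and 173 and 247 bp at day 10 under NSD2LDD and was not called in DMSO, and day 0 KMS34 libraries had 348 and 0 bp. Each region was thus called in 1 of 2 day 0 KMS34 libraries, and no KMS11 library called either. Both calls were lost in a fit of KMS34 alone (limma adjusted p = 0.709 for FOXA1 and 0.797 for IRX2), and the IRX2 call was lost in 23 of 29 other settings, most of them with 1 library left out.

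**Figure D5:**
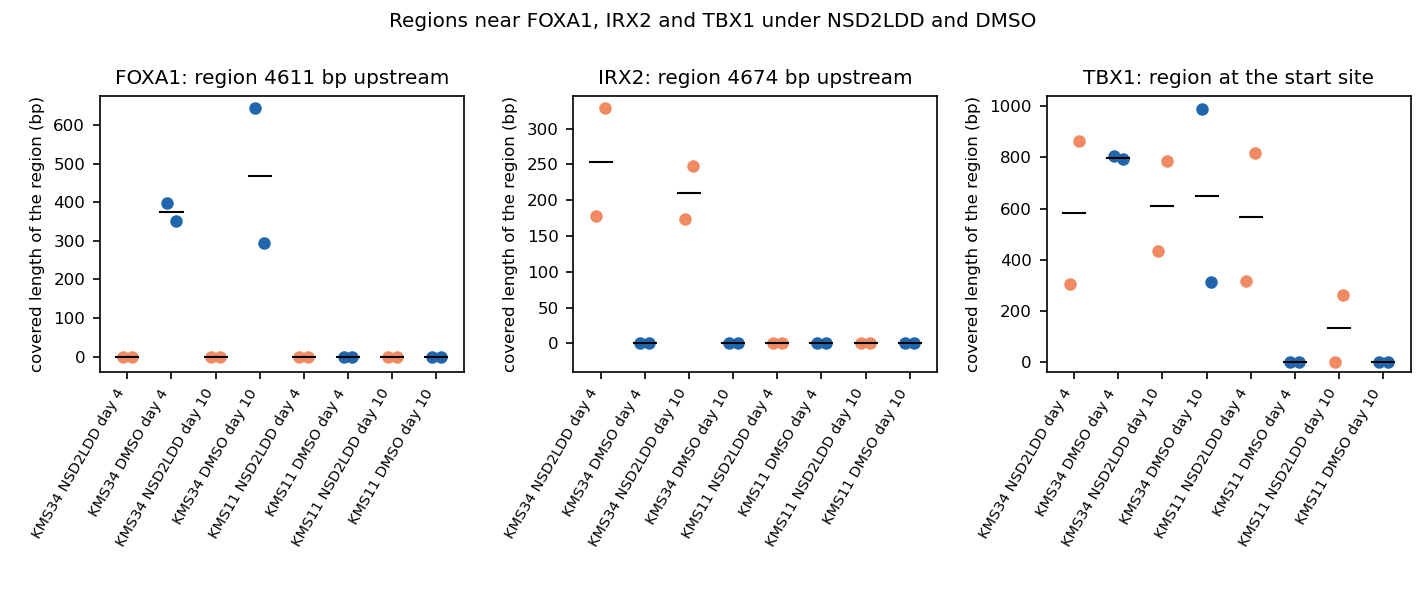
Points give the covered length (bp) of 3 regions in each NSD2LDD and DMSO library of both lines, by line and day along the horizontal axis, with black lines for the mean of the 2 libraries. The region upstream of FOXA1 is at 0 in all 4 KMS34 NSD2LDD libraries, the region upstream of IRX2 is at 0 in all 4 KMS34 DMSO libraries, and the TBX1 start-site region is at 0 in all 4 KMS11 DMSO libraries.

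The effect of NSD2LDD was also set against itself between the lines. The differences of the effects (KMS34 minus KMS11) were -1.66 ± 0.38 at FOXA1, 1.52 ± 0.45 at IRX2 and -1.41 ± 0.50 at TBX1, with limma adjusted p of 0.702, 1.0 and 1.0. The regions named above gave -2.31 at FOXA1, 1.74 at IRX2 and -1.99 at TBX1 (limma adjusted p = 0.21, 0.43 and 0.433). None of the 68 regions passed, against 0.00578% of all regions, and 5 had an unadjusted p under 0.05, against 4141 of all 69187 regions.

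Proteins that work with the members were measured as a list of 26 genes, of which 23 could be tested. In TKO 4 of the 23 were lower than in day 0 KMS11 and none was higher, against 3.34% and 1.35% of all genes. ZFPM2, a cofactor of GATA proteins, covered 782 and 787 bp in TKO against 1708 and 2505 bp in day 0 KMS11 (-1.35, limma adjusted p = 0.00544). GLI3, a Hedgehog effector related to ZIC proteins, covered 295 and 705 bp in TKO against 1437 and 2099 bp in day 0 KMS11 (-1.68, limma adjusted p = 6.38e-05). GLI2, of the same pathway, had no called peak in TKO against 248 and 448 bp in day 0 KMS11 (-1.58, limma adjusted p = 0.00878). LMO4, a LIM-only protein, covered 698 and 750 bp in TKO against 1169 and 1365 bp in day 0 KMS11 (-0.81, limma adjusted p = 0.00602). None of these 4 overlapped between groups (22.5% of all genes did not), and the median of the list was -0.60, against -0.03 for all genes. The other settings were followed for the members and not for this list. How far these 4 calls depend on list length or on single libraries was therefore not tested. Between lines, where 14.7% of all genes were lower and 20.9% higher, PBX3, PKNOX1, EYA3, EYA4 and GLI1 were lower in KMS34 and ZFPM1, LMO4 and PKNOX2 were higher, and under NSD2LDD limma called none in either line, with 2 in KMS11 and 3 in KMS34 at an unadjusted p under 0.05.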

How the data were processed

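ATAC-seq was measured in 22 libraries, grouped by line, treatment and day from the labels. Per the submitters' processing notes, the authors worked on hg38 with MACS3, fastp, BWA, Picard, SAMtools and deepTools. Their versions, any Tn5 shift, any duplicate removal and the thresholds for calling were not given in the sources used here. In all, the deposited files hold peaks called in each library separately. In them, the authors gave each peak a score, a fold enrichment (a ratio), a -log10 p, a -log10 q and a summit. The deposited -log10 q, at least 2.0, served to order peaks of one list or to drop weak ones, the deposited summit only to place a peak, and the other deposited values were not used.

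Merging the peaks of the 22 autosomes and of X gave 96166 regions. Covered bases were counted per library in each region and in each gene (RefSeq GRCh38.p14, body and 5 kb either side), and 69187 regions and 16738 genes with a peak in 2 libraries or more entered the tests. The fitted value was the log2 of covered bases plus 200 bp (genes) or 100 bp (regions), less the library's median over the 12021 genes or 13884 regions covered in all libraries. Log2 differences are on that scale and understate the change at small values. The fit was limma 3.58.1 (trend and robust, R 4.3.3) with 1 mean for each of 11 groups over 22 libraries and Benjamini-Hochberg adjustment at 0.05. Covered bases were checked against bedtools 2.31.1, and the fit was tested on simulated data. Python 3.11.15, numpy 2.4.6, pandas 2.3.3 and matplotlib 3.10.9 were used.

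The members and lists were chosen with earlier results of these data known. All members were accounted for, and those called in any of 5 comparisons, or with the 3 smallest p in one, were named with their values. Of called regions, at most the 5 with the smallest p in a comparison were described in full by this rule. The regions of GATA2, GATA3, SIX3, TBX2, TBX3, FOXA1 and MEIS1 beyond it were chosen after their values were seen. Alternatives were other bases added, other minimums of libraries, peaks of -log10 q 5 or more, lists of equal length, no scaling, quantile normalization, other windows, a replicate block, a fit without trend and robust, one line alone, and each library left out. Over all pairs of groups, the deviations of same-numbered libraries had correlations of -0.212 to 0.274. Between NSD2LDD and DMSO at day 10 the value was 0.274 in KMS11 and -0.097 in KMS34. These values cannot settle whether libraries are paired within a line and day, and the replicate number was used only as an alternative. The difference between lines at 1 gene of the partner list is not reported here.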

Additional observations from a re-analysis of the deposited data

How the results depend on the processing

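Between lines, 9 members kept their call and direction under every alternative in which they could be tested (ZIC2, TBX18, IRX3, ISL1, TBX21, TBX2, ZIC4, ZIC1 and TBX15), as did 20 of the 31 called regions. The count of 21 members was 12 with the gene ends alone and 17 to 21 with 1 library left out, and that of 31 regions was 18 with lists of equal length and 28 to 35 with 1 library left out. The 4 members called in TKO became 2 with peaks of -log10 q 5 or more, 1 with lists of equal length, 2 without scaling, 1 with no flank, 2 with bases outside other genes (an alternative chosen after seeing the data), and 2 to 4 with 1 library left out (2 without the first TKO library). The 3 regions called in TKO became 0 with lists of equal length and 2 to 4 with 1 library left out. Under NSD2LDD in KMS34, 1 member, FOXA1, was called with 50 bp added and in the fit without trend and robust. The 2 regions became 1 with 300 bp added, 1 with a minimum of 1 library, 0 with a minimum of 6, 0 with peaks of -log10 q 5 or more, 0 with lists of equal length, 1 with the replicate block and 0 with 1 line alone, and 1 to 4 with 1 library left out (4 without the second KMS34 DMSO library of day 10). The sign turned at FOXA1 under NSD2LDD in KMS34 with lists of equal length (0.03), no flank (0.01), gene ends (0.03) and bases outside other genes (0.02), and in the difference between the lines' effects with lists of equal length (0.99) and no flank (0.03). Between lines it turned at GATA3 (0.60), TBX10 (-0.14) and EOMES (-0.02) with gene ends. At SIX3 it turned with gene ends (1.17, limma adjusted p = 7.87e-06), no flank (0.88, limma adjusted p = 0.000393) and 50 kb either side (0.53). The sign also turned at TBX1 with 50 kb either side (-0.53, limma adjusted p = 0.0359), and with lists of equal length at TBX19 (-0.04) and at the region upstream of TBX10 (-0.08). The replicate block left 3 members called in TKO, 20 between lines and 0 under NSD2LDD in either line. It left 3 regions called in TKO and 31 between lines. Whether the numbers pair the libraries is not known. Fits of 1 line alone do not apply to the comparisons across lines. Apart from the construction of these alternatives (fewer peaks, other windows, fewer libraries), the cause was not tested. Unknown depth limits every statement that a peak was not called.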

Other observations

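Members covered in all 22 libraries differed in how strong their peaks were. By the deposited -log10 q, the strongest peak in the TBX20 window stood at a median percentile of 94.5 of its library's list (80.5 to 99.2 over libraries), that of ISL2 at 91.3 and that of SIX4 at 42.0. In KMS34 the nearest region called in any library lay 9.71 kb above TBX18, 10.2 kb below ZIC2, 89.1 kb below IRX3 and 419 kb below ISL1. In KMS11 the nearest lay 82.3 kb below TBX21. These are values only, and no explanation was tested.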
